A study of Rattus norvegicus with 6 samples.

Results

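The transcripts described here encode 10 proteins of mTORC1 and TFEB signalling at the lysosome: the kinase MTOR and its partner RPTOR, the TSC complex subunits TSC1 and TSC2, the GTPases RHEB and RRAGA, the Ragulator anchor LAMTOR1, the Rag regulator FLCN, and the transcription factors TFEB and TFE3. They were picked by symbol from the 17648 rows of the expression matrix, and each of the 10 had a row. The 6 libraries were made from RNA of neurons cultured from the spinal cord of Sprague-Dawley rats at the neonatal stage. The Glu + siR-Con group (3 libraries, hereafter siR-Con) received a control transfection, and the Glu + siR-GAL3 group (3 libraries, hereafter siR-GAL3) was transfected against GAL3, the galectin-3 gene Lgals3. By the methods and the design text, all 6 cultures had been exposed after 3 days to 10 µM glutamate for 1 h and were kept for 16 h more, whereas the treatment labels of the siR-Con libraries name saline. If those labels hold, glutamate and siRNA cannot be told apart. The design text and labels call GAL3 knocked out and the methods call it knocked down by siRNA. Cytosine arabinoside, which kills dividing cells, was added to raise the share of neurons. The study describes its data in general as coming from independent repeated experiments, but no source used here says which cultures or litters gave these libraries, so the p-values measure the spread between libraries, part of which may be technical.

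mTORC1 is a kinase complex that promotes growth and restrains autophagy when amino acids and growth factors are plentiful. Amino acids act through the Rag GTPases, which the Ragulator complex holds on the lysosomal surface and which bring mTORC1 there, and growth factors act through RHEB, the direct activator of the kinase, which the TSC complex keeps in its GDP-bound, inactive state. Active mTORC1 phosphorylates TFEB and TFE3 and thereby holds them in the cytoplasm. After its loss they enter the nucleus and switch on genes of lysosomes and autophagy. Because these switches work by phosphorylation, GTP loading and location, a transcript level does not report the activity of the pathway.

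Before the results, some facts of the whole matrix bear on them. The targeted gene LGALS3 measured 77.4, 54.4 and 62.4 in the siR-Con libraries and -1.64, 32.3 and 18.5 in the siR-GAL3 libraries, in FPKM-derived units on a linear scale. Its means were 64.8 ± 11.7 and 16.4 ± 17.1 (SD, n = 3), and its log2 fold change was -2.91 (limma, SE 1.20, adjusted p = 0.571). Its size rested on single libraries and on the pseudocount, at -1.35 without siR-GAL3 replicate 1 (the library below 0), -3.88 without siR-GAL3 replicate 2 and -4.03 with a pseudocount of 0.1. One library stood apart: the first principal component took 65.2% of the variance and placed siR-GAL3 replicate 2 at 27.9 and the other libraries between -8.52 and -1.94. That library was the highest or the lowest of the 6 for 76.7% of the 8495 genes tested, those whose mean over the libraries reached 1. Libraries also shared exactly equal values and fell into 3 sets by them. Pairs of libraries within a set shared the values of 1312 to 1463 genes, and pairs between sets those of 238 to 264. The sets held siR-Con replicate 1 with siR-GAL3 replicate 1, siR-Con replicates 2 and 3 with siR-GAL3 replicate 3, and siR-GAL3 replicate 2 alone. Group differences of the members, the pathway lists and the genes named from them are therefore also given without siR-GAL3 replicate 2.

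The cultures held RNA of several cell types. The neuronal markers MAP2, ELAVL3 and TUBB3 had means of 16.9, 9.10 and 4.63, while RBFOX3, NEFL and NEFM were near 0 (0.383, 0.343 and 0.594). Some glial transcripts were far higher, with the highest means of 589.6 for GFAP, the astrocyte filament, and 713.0 for MBP, the myelin protein. The microglial markers C1QA, C1QB and C1QC, at 24.8, 34.8 and 35.7, also lay above MAP2. Other glial markers lay below MAP2, such as ALDH1L1 (3.21) of astrocytes, P2RY12 (1.60) of microglia and MOG (4.06) of oligodendrocytes. Fewer cells of a type and less RNA per cell cannot be told apart in such bulk libraries, and all levels below are averages over this mixture. No marker was listed at or below 0 in all libraries.

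To show the DNA that TFEB and TFE3 are known to recognise, the promoter windows of members that hold the E-box CACGTG are printed here, with that of the TFEB target LAMP1 beside them. The windows run from 250 bases before to 50 bases after the start site in RefSeq (assembly GRCr8), and 8 of the 10 members had one. Capitals mark CACGTG, which reads the same on both strands. LAMTOR1 lies at chr1:165683865-165684164 (+), RHEB at chr4:11013133-11013432 (+) and LAMP1 at chr16:83075014-83075313 (-), and each is written 5′ to 3′ on the strand of its gene.
LAMTOR1: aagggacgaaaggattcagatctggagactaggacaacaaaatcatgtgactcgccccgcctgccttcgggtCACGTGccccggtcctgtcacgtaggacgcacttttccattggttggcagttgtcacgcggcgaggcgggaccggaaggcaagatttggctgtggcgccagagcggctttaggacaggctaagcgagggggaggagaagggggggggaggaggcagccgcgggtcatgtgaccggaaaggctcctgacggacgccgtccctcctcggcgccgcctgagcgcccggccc
RHEB: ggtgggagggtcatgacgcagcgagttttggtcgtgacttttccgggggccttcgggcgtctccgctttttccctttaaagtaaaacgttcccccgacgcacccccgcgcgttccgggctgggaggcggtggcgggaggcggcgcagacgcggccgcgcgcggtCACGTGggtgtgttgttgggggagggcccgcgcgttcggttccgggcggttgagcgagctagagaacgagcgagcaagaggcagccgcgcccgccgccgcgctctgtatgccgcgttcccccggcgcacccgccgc
LAMP1: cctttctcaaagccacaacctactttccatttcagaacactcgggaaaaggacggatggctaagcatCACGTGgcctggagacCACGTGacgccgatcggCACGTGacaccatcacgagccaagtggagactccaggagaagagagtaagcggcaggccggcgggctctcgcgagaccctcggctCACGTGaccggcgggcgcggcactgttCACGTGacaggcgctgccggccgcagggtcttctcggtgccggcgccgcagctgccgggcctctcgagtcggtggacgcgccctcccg
The LAMTOR1 motif began 178 bases before the start site and the RHEB motif 86 bases before it. The LAMP1 window held 5 such motifs, and 2 of them were part of the longer CLEAR-type sequence TCACGTGA. None of the 8 member windows held TCACGTGA. Over all 33469 windows, 6.42% held CACGTG and 0.777% held TCACGTGA, and over the 7530 windows of genes tested here the shares were 9.71% and 1.99%. In the list of TFEB target genes described below, 8 of 20 windows held CACGTG and 3 held TCACGTGA. A match is a description of the letters and not a binding site.

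None of the 10 transcripts differed between siR-GAL3 and siR-Con beyond the spread between libraries. All passed the filter on low values, none had an adjusted p under 0.05 in limma, and the share of all genes that did was 0% (0 of 8495). None had an unadjusted p under 0.05 either, against 8.66% of all genes. None met the criteria of the study (an absolute log2 fold change over 1 and an unadjusted p under 0.05), against 0.318% of all genes. The methods of the study give these criteria with its analysis of public datasets of spinal cord injury. Its supplement names an adjusted p under 0.05 in DESeq for sequenced samples with replicates. Here the criteria were applied to log2(value + 1), which understates fold changes of low genes, so low members meet them less easily. The share of 0.318% is therefore not a call made by the study. Adjusted p-values of the 10 members lay between 0.590 and 0.860. The fold changes were positive for RHEB, LAMTOR1, RRAGA and TFEB and negative for the other 6, with a median of -0.06 on the log2(value + 1) scale against -1.2e-05 over all genes. In size, the median absolute log2 fold change was 0.0923 for the members and 0.0996 for all genes. The 95% intervals of the differences together ran from -0.67 to 0.37, so that changes of up to that size were not excluded by these libraries.

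MTOR, the kinase itself, measured 2.18, 2.07 and 2.21 in the siR-Con libraries and 2.15, 1.43 and 2.17 in the siR-GAL3 libraries. Replicates 1 and 3 of siR-GAL3 lay within the siR-Con range and replicate 2 lay under it. The means were 2.15 ± 0.0747 and 1.92 ± 0.422 (SD, n = 3), which gave a log2 fold change of -0.12 (SE 0.11, 95% interval -0.39 to 0.14, adjusted p = 0.648).

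RPTOR, the scaffold that presents substrates to the kinase, measured 1.499, 1.59 and 1.61 in siR-Con and 1.46, 0.970 and 1.47 in siR-GAL3. It was the single member whose groups did not overlap, since each siR-GAL3 value lay below each siR-Con value, and 20.5% of all genes tested had groups that did not overlap. The gap between the groups was narrow, from 1.47 to 1.499. The log2 fold change was -0.17 (SE 0.10, 95% interval -0.40 to 0.066, adjusted p = 0.590), and the exact two-sided permutation test gave 0.1, the smallest p that 3 against 3 libraries allow. Without siR-GAL3 replicate 2 the log2 fold change was -0.059.

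**Figure D1:**
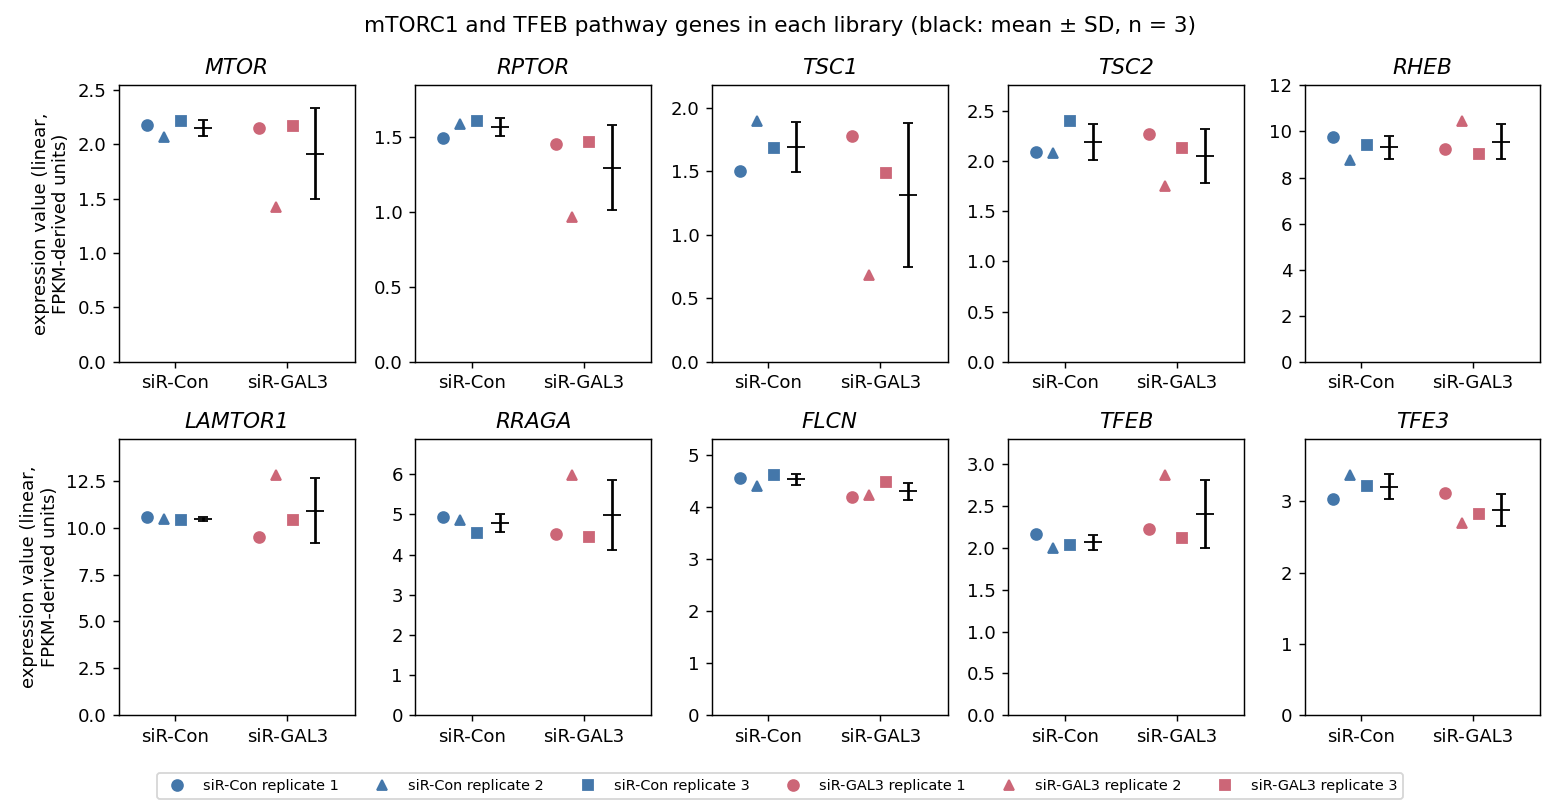
Expression value of each of the 10 genes (vertical axis, linear FPKM-derived units, starting at 0, a separate scale per gene) in the 3 siR-Con and 3 siR-GAL3 libraries, with the mean and SD of each group in black and the replicate number given by the marker shape. The triangle of siR-GAL3 replicate 2 is the lowest point for MTOR, RPTOR, TSC1, TSC2 and TFE3 and the highest for RHEB, LAMTOR1, RRAGA and TFEB.

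TSC1, the stabilising subunit of the TSC complex, measured 1.501, 1.89 and 1.68 in siR-Con and 1.77, 0.684 and 1.48 in siR-GAL3. It had the widest spread of the 10 genes relative to its level, and replicate 2 of siR-GAL3 was far below the other 5 libraries. The log2 fold change was -0.25 (SE 0.18, 95% interval -0.67 to 0.18, adjusted p = 0.622), and -0.034 without that library.

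TSC2, the subunit that carries the GTPase-activating domain for RHEB, measured 2.09, 2.08 and 2.40 in siR-Con and 2.26, 1.75 and 2.13 in siR-GAL3. The groups overlapped, and the means of 2.19 ± 0.180 and 2.05 ± 0.266 (SD, n = 3) gave a log2 fold change of -0.07 (SE 0.09, adjusted p = 0.724). The ratio of TSC1 to TSC2 was 0.718, 0.911 and 0.701 in siR-Con. In siR-GAL3 it was 0.784, 0.391 and 0.696, so that the subunits stood in a similar proportion in 5 libraries and in a lower one in siR-GAL3 replicate 2.

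RHEB, the GTPase that switches mTORC1 on, measured 9.75, 8.77 and 9.40 in siR-Con and 9.22, 10.5 and 9.01 in siR-GAL3. Replicates 1 and 3 of siR-GAL3 fell inside the siR-Con range and replicate 2 above it. The means were 9.31 ± 0.493 and 9.56 ± 0.778 (SD, n = 3), with a log2 fold change of 0.03 (SE 0.08, 95% interval -0.16 to 0.22, adjusted p = 0.849). Its sign turned when a single library was left out, to -0.026 without siR-GAL3 replicate 2 and to -0.0040 without siR-Con replicate 2.

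LAMTOR1, the lipid-anchored subunit that ties Ragulator to the lysosomal membrane, measured 10.6, 10.4 and 10.4 in siR-Con and 9.49, 12.8 and 10.4 in siR-GAL3. The siR-Con libraries were almost level, while the siR-GAL3 libraries lay on both sides of them. The SDs were 0.0943 and 1.72 around means of 10.5 and 10.9 (n = 3), and the log2 fold change was 0.04 (SE 0.11, 95% interval -0.21 to 0.30, adjusted p = 0.855). Replicate 3 of both groups held exactly the same value, 10.3854. The row LOC100361543 held the same 6 values as LAMTOR1, so the level of LAMTOR1 apart from that row is uncertain.

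RRAGA, one of the Rag GTPases that bind the raptor subunit, measured 4.94, 4.87 and 4.53 in siR-Con and 4.52, 5.99 and 4.45 in siR-GAL3. Here 2 siR-GAL3 libraries were lower than every siR-Con library and replicate 2 was higher than all of them. Replicate 1 of siR-GAL3 was only just lower than siR-Con replicate 3 (4.524 against 4.526). The log2 fold change of 0.04 (SE 0.11, 95% interval -0.22 to 0.30, adjusted p = 0.860) turned to -0.075 without siR-GAL3 replicate 2. The ratio of LAMTOR1 to RRAGA stayed between 2.10 and 2.34 in all 6 libraries, replicate 2 included (2.14).

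FLCN, the folliculin subunit of a GTPase-activating complex for RRAGC and RRAGD, measured 4.57, 4.42 and 4.63 in siR-Con and 4.20, 4.24 and 4.49 in siR-GAL3. It was the steadiest member, and the only one in which siR-GAL3 replicate 2 was neither the highest nor the lowest library. The means were 4.54 ± 0.110 and 4.31 ± 0.157 (SD, n = 3). Its log2 fold change was -0.06 (SE 0.06, 95% interval -0.21 to 0.085, adjusted p = 0.666), and -0.053 without replicate 2.

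TFEB, a master regulator of lysosomal genes, measured 2.17, 2.00 and 2.03 in siR-Con and 2.22, 2.87 and 2.12 in siR-GAL3. The highest siR-Con library lay between the siR-GAL3 libraries, so the groups overlapped. Its means of 2.07 ± 0.0892 and 2.40 ± 0.409 (SD, n = 3) differed by 16.3%, the largest positive difference among the members. The log2 fold change was 0.14 (SE 0.09, 95% interval -0.080 to 0.37, adjusted p = 0.607), and 0.047 without siR-GAL3 replicate 2.

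TFE3, the close relative of TFEB that binds the same elements, measured 3.03, 3.38 and 3.21 in siR-Con and 3.12, 2.70 and 2.82 in siR-GAL3. The means were 3.21 ± 0.172 and 2.88 ± 0.219 (SD, n = 3), and siR-GAL3 replicate 1 lay inside the siR-Con range. The log2 fold change was -0.12 (SE 0.07, 95% interval -0.29 to 0.054, adjusted p = 0.593), and it kept its sign without replicate 2 (-0.083). The ratio of TFEB to TFE3 was 0.715, 0.593 and 0.633 in siR-Con and 0.712, 1.07 and 0.750 in siR-GAL3, and TFEB exceeded TFE3 in siR-GAL3 replicate 2 alone.

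**Figure D2:**
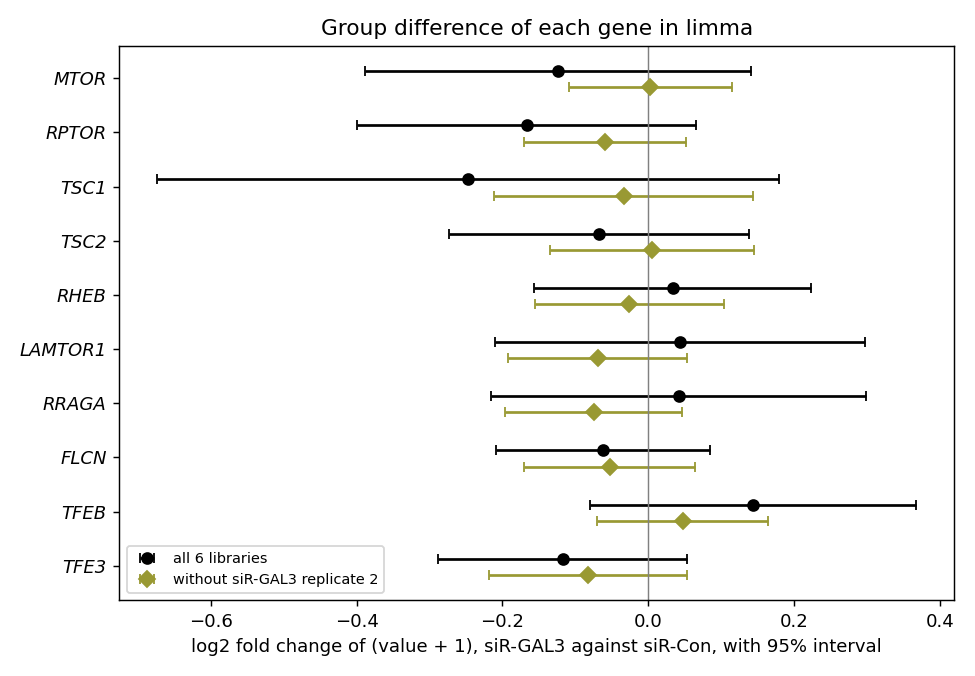
Log2 fold change of each gene on the log2(value + 1) scale (horizontal axis, siR-GAL3 against siR-Con, bars give the 95% interval of limma), with all 6 libraries in black and without siR-GAL3 replicate 2 in olive. Every interval spans 0, and the olive points lie closer to 0 except for LAMTOR1 and RRAGA.

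Most members were at an extreme in siR-GAL3 replicate 2, and so were most genes of the matrix, in both directions. It was the lowest library for 5 members (MTOR, RPTOR, TSC1, TSC2 and TFE3) and the highest for 4 (RHEB, LAMTOR1, RRAGA and TFEB). These are 9 of 10 members, against 76.7% of all genes tested. Over all 8495 genes that library was the lowest for 2985 and the highest for 3527. Its difference from the mean of the other 5 libraries was -33.8% for MTOR, -36.4% for RPTOR and -58.9% for TSC1. On the other side it was 36.2% for TFEB, 28.5% for RRAGA and 24.99% for LAMTOR1. The median absolute deviation of that library was 0.301 on the log2(value + 1) scale for the members and 0.220 for all genes. The summed level of the 10 genes was 42.3, 41.5 and 42.1 in siR-Con and 40.4, 43.9 and 40.5 in siR-GAL3. It was highest in siR-GAL3 replicate 2, so the deviations in the 2 directions offset each other only in part.

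**Figure D3:**
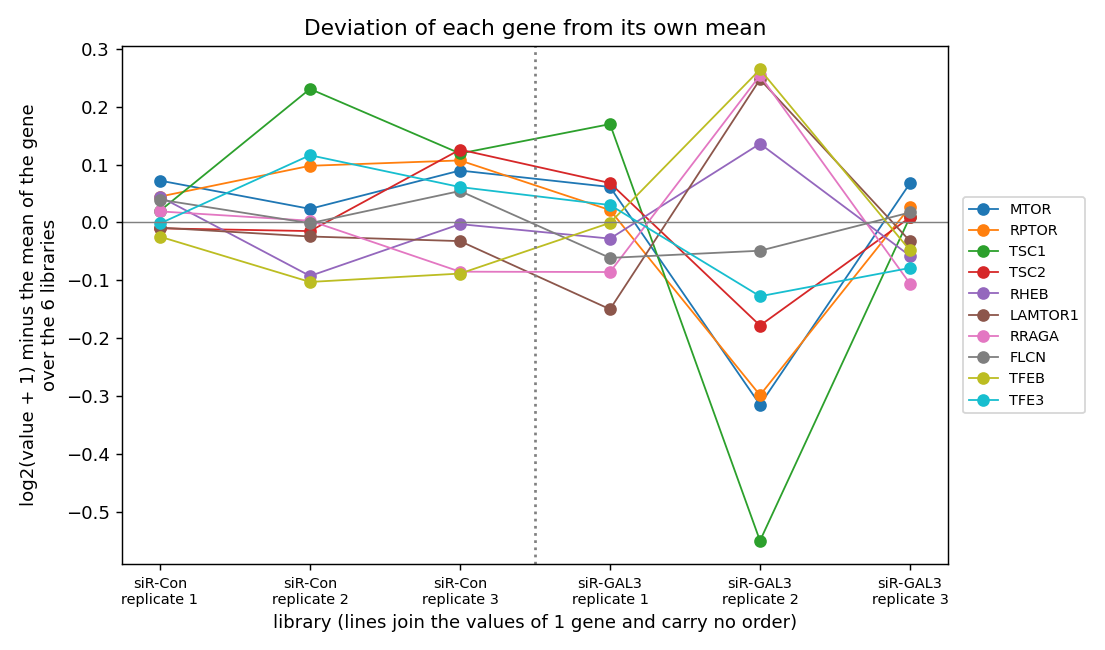
Log2(value + 1) of each gene minus its own mean over the 6 libraries (vertical axis) in each library (horizontal axis), 1 line per gene. In siR-GAL3 replicate 2 TSC1 drops below -0.5 and TFEB, RRAGA and LAMTOR1 lie near 0.25, while in the other libraries the 10 genes stay within about 0.25 of their means.

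When that library was left out, none of the members had an unadjusted p under 0.05, against 16.3% of the 8458 genes then tested. Adjusted p-values of the members ran from 0.532 to 0.986, and 1.97% of all genes had one under 0.05. The 95% intervals then narrowed to between -0.22 and 0.16 over all 10 genes. The median absolute log2 fold change was 0.0501 for the members and 0.0611 for all genes. The fold changes of MTOR and TSC2 moved to 0.0027 and 0.0049 and that of LAMTOR1 to -0.069. With RHEB and RRAGA, these were the 5 genes whose sign turned. Over all settings tried, the smallest adjusted p of any member was 0.336.

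On the linear, length-scaled values, the members fell into high, middle and low levels. LAMTOR1 and RHEB were highest, with means of 10.7 and 9.43 over the 6 libraries, and 94.1% and 93.2% of genes in the matrix had a lower mean. Then came RRAGA (4.88) and FLCN (4.42), followed by TFE3 (3.04), TFEB (2.24), TSC2 (2.12), MTOR (2.03), TSC1 (1.503) and RPTOR (1.43). The ranges of neighbours in this order overlapped except between RHEB and RRAGA and between FLCN and TFE3. Within libraries LAMTOR1 exceeded RHEB in 6 of 6 and MTOR exceeded TSC1 in 6 of 6, whereas TFEB exceeded TSC2 in only 2. The kinase subunits were thus listed at lower levels than the GTPases and the Ragulator anchor. The ratio of RPTOR to MTOR was 0.689, 0.769 and 0.727 in siR-Con and 0.678, 0.679 and 0.678 in siR-GAL3, and it did not depart in replicate 2.

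Some genes outside the pathway followed the pattern of a member closely over the 6 libraries, by the mean absolute difference of the centred log2(value + 1). Nearest to MTOR were GFM2, a mitochondrial translation factor (0.0075), ADCY6, an adenylyl cyclase (0.012), and FRMD5 (0.016). GFM2 measured 1.92, 1.82 and 1.98 in siR-Con and 1.85, 1.23 and 1.90 in siR-GAL3, with the lowest value in replicate 2, as for MTOR. Nearest to TFEB were PEF1, a calcium-binding protein (0.018), EIF2S1, the alpha subunit of the initiation factor eIF2 (0.018), and SMIM7 (0.018). PEF1 measured 2.60, 2.28 and 2.48 in siR-Con and 2.60, 3.34 and 2.46 in siR-GAL3, high in replicate 2.

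The wider pathway was described with 7 lists of 110 other genes, of which 87 passed the filter. None had an adjusted p under 0.05, and 2 (PRR5L and LAMP1, both lower in siR-GAL3) had an unadjusted p under 0.05, which is 2.30% against 8.66% of all genes. No gene met the criteria of the study. The median log2 fold change over the 87 genes was -0.028. Groups did not overlap for 21 of them (24.1%), close to the 20.5% of all genes, and siR-GAL3 replicate 2 was the highest or the lowest library for 64 (73.6%, against 76.7%).

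Among the other subunits of mTORC1 and mTORC2, 8 of 10 genes were tested, 4 with positive and 4 with negative fold changes and a median of -0.013 (-0.016 without replicate 2). PRR5L, a protein bound to mTORC2, measured 1.68, 1.502 and 1.65 in siR-Con and 1.09, 1.35 and 1.23 in siR-GAL3 (log2 fold change -0.23, SE 0.07, adjusted p = 0.402). Its groups did not overlap, and without replicate 2 the log2 fold change was -0.27 with an adjusted p of 0.0569. TTI2, a cofactor in the assembly of PIKK kinases, measured 1.79, 2.13 and 1.86 against 2.13, 2.32 and 2.21 (0.14, adjusted p = 0.585, and 0.12 without replicate 2), and its groups met at 2.13 without overlap.

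Of the other inputs to TSC and RHEB, 12 of 15 genes were tested, and 3 had positive and 9 negative fold changes, with a median of -0.10 that shrank to -0.033 without replicate 2. AKT2, a kinase that inhibits TSC2, measured 7.37, 7.61 and 7.53 against 7.09, 5.78 and 7.19 (-0.15, adjusted p = 0.590, and -0.062 without replicate 2). Each siR-GAL3 value of AKT2 lay below the siR-Con values, with replicate 2 lowest.

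The other Rag and Ragulator genes had rows for 9 of 11, and 6 were tested, 4 with positive fold changes. Their median of 0.023 turned to -0.029 without replicate 2. LAMTOR5 measured 4.22, 4.68 and 4.32 in siR-Con and 4.77, 6.40 and 5.05 in siR-GAL3 (0.24, adjusted p = 0.577, and 0.13 without replicate 2). LAMTOR2 measured 3.09, 2.98 and 3.13 against 3.21, 5.10 and 3.28 (0.24, adjusted p = 0.594, and 0.061 without replicate 2). Both encode Ragulator subunits, and both were highest in replicate 2, as were 3527 of all 8495 genes tested. Replicate 2 was the highest or the lowest library for all 6 tested genes of the list, of which 2 had negative fold changes.

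For GATOR, KICSTOR and the amino acid sensors, which pass nutrient state to the Rags, 10 of 18 genes were tested, 7 with positive and 3 with negative fold changes and a median of 0.010 (0.042 without replicate 2). SESN3, a sestrin, measured 11.0, 14.9 and 14.1 in siR-Con and 13.4, 6.73 and 9.74 in siR-GAL3 (-0.42, adjusted p = 0.589), and its groups overlapped. That value became -0.19 without siR-GAL3 replicate 2 and -0.64 without siR-GAL3 replicate 1. NPRL2, a subunit of the GATOR1 complex that inactivates RRAGA, measured 1.68, 1.55 and 1.55 against 1.74, 1.83 and 1.68 (0.085, adjusted p = 0.612, and 0.066 without replicate 2), with groups that met at 1.68 without overlap.

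Downstream of mTORC1, all 14 substrate and output genes with a row were tested, and 3 had positive and 11 negative fold changes. The median of -0.073 became 0.046 without replicate 2. GRB10, an adaptor that dampens insulin signalling, measured 4.02, 4.13 and 4.13 in siR-Con and 3.75, 2.88 and 3.72 in siR-GAL3 (-0.20, adjusted p = 0.585, and -0.11 without replicate 2). RPS6KB2, an S6 kinase, measured 3.33, 2.96 and 3.31 against 3.53, 3.45 and 3.87 (0.14, adjusted p = 0.587, and 0.16 without replicate 2). The groups of both genes were separate, in opposite directions.

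Among the other MiT-TFE factors and the regulators of TFEB, 11 of 12 genes were tested, 4 with positive and 7 with negative fold changes. Their median of -0.017 turned to 0.015 without replicate 2. PPP3R1, the regulatory subunit of calcineurin, which dephosphorylates TFEB, measured 5.39, 5.36 and 5.53 in siR-Con and 5.86, 8.16 and 5.73 in siR-GAL3 (0.22, adjusted p = 0.590, and 0.080 without replicate 2). XPO1, the exportin that returns TFEB to the cytoplasm, measured 9.19, 8.61 and 9.07 against 8.45, 7.26 and 8.63 (-0.13, adjusted p = 0.596, and -0.061 without replicate 2). Replicate 2 was the farthest library in both.

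The lysosomal and autophagy target genes of TFEB were read beside the TFEB transcript itself. Of 29 genes, 26 were tested, and 8 had positive and 18 negative fold changes, with a median of -0.035 and of -0.052 without replicate 2. LAMP1, the lysosomal membrane glycoprotein whose promoter window is printed above, measured 207.5, 180.8 and 180.8 in siR-Con and 157.1, 145.6 and 162.8 in siR-GAL3. Each siR-GAL3 value lay below each siR-Con value, and the log2 fold change of -0.29 (SE 0.09, 95% interval -0.49 to -0.083) had an adjusted p of 0.415 in limma. Without replicate 2 it was -0.24, with an adjusted p of 0.188. SQSTM1, the autophagy receptor p62, measured 59.6, 56.1 and 59.6 against 54.9, 51.9 and 48.4 (-0.17, adjusted p = 0.577, and -0.18 without replicate 2), again without overlap. Without replicate 2, 4 of the target genes had an unadjusted p under 0.05, against 16.3% of all genes, and none an adjusted p under 0.05, against 1.97%. Replicate 2 was the highest or the lowest library for 12 of the 26 genes, against 76.7% of all genes.

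**Figure D4:**
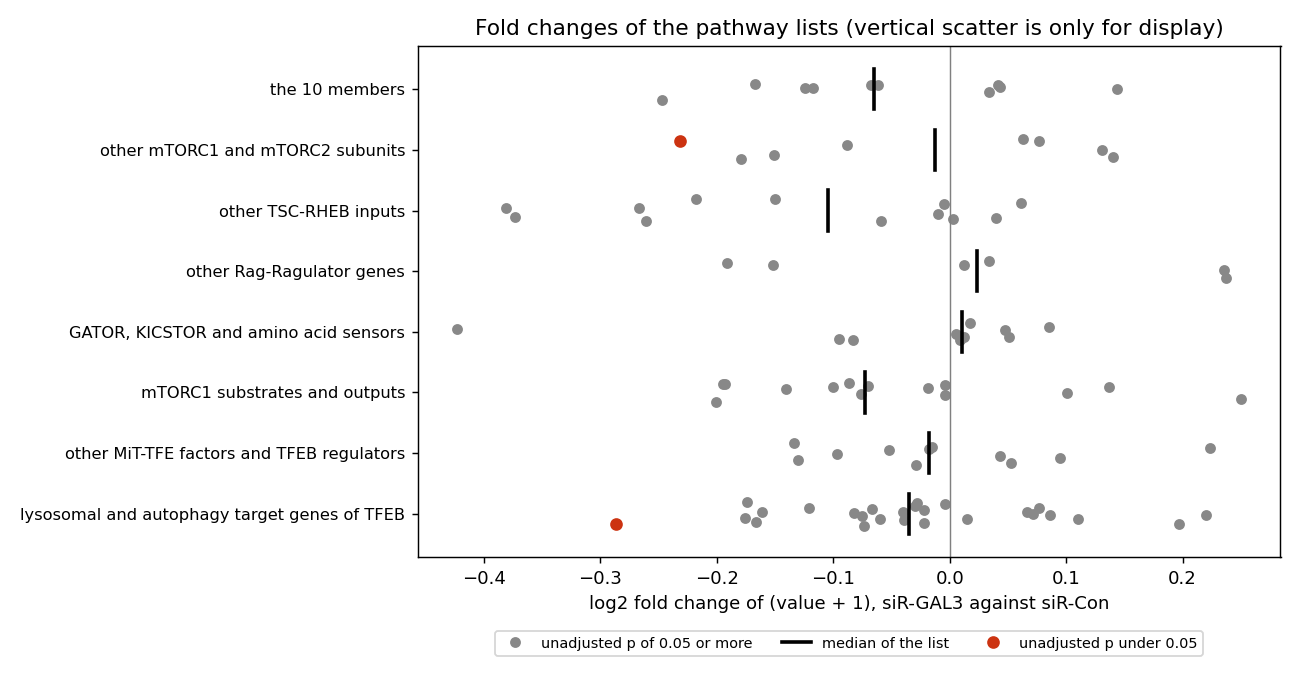
Log2 fold change on the log2(value + 1) scale (horizontal axis, siR-GAL3 against siR-Con) of the 10 members and of each tested gene of the 7 pathway lists, 1 point per gene, with the median of each list as a black bar. The points in red, PRR5L at -0.23 and LAMP1 at -0.29, have an unadjusted p under 0.05, and each list has genes on both sides of 0.

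Markers of other cell types also differed in summed level between the groups. Over 8 astrocyte markers the sum was 928 to 1069 in siR-Con and 801 to 866 in siR-GAL3. GFAP alone made up most of it, at 758, 638 and 571 in siR-Con and 523, 533 and 515 in siR-GAL3. Of the 8 markers, 6 had negative and 2 had positive fold changes, and 4 were lower at an unadjusted p under 0.05. For microglia it was 98.1 to 118.9 and 123.8 to 141.4, and all 9 tested markers of 10 had positive fold changes, 4 with an unadjusted p under 0.05. For the list of fibroblast and endothelial markers the sum was 44.1 to 51.5 and 34.0 to 39.1, with 3 of 5 tested markers lower at that threshold. Of these 5, 4 had negative fold changes and 1 a positive one. No endothelial marker was among them, since PECAM1 had no row and CDH5 and KDR (means of 0.878 and 0.108) did not pass the filter. Oligodendrocyte lineage markers summed to 930 to 992 and 929 to 1240, and neuron markers to 33.3 to 37.6 and 30.9 to 37.8, with overlap in both. Of 8 tested oligodendrocyte lineage markers, 6 had positive and 2 negative fold changes, none with an unadjusted p under 0.05. Of 6 tested neuron markers, 4 had positive and 2 negative fold changes, and 1 was higher at that threshold. Over all genes tested, 8.66% had an unadjusted p under 0.05. None of these markers had an adjusted p under 0.05 with all 6 libraries, whereas 2 microglia markers did without siR-GAL3 replicate 2. When that library was left out, the median log2 fold change moved from 0.11 to 0.28 for microglia and from -0.19 to -0.14 for astrocytes. For the tested markers of the fibroblast and endothelial list it moved from -0.42 to -0.32. Their part in the levels of MTOR, TFEB and the other genes described here was not tested.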

How the data were processed

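RNA of cultured spinal cord neurons was sequenced in 6 libraries, 3 siR-Con and 3 siR-GAL3. Per the methods, the authors aligned reads with STAR, counted them with HTSeq and estimated FPKM, and the resulting matrix was further adjusted for batch, standardized and corrected for differences within a group. The tools for the last steps and the genome build are not given in the sources used here. The labels name ribosomal RNA depletion and the supplement poly-T selection, which could change the transcripts seen. The deposited values are a score on a linear scale derived from FPKM, with column totals of 64313 to 64714 and 3.86% of values below 0. The depth is therefore unknown, no counting error can be given, and the correction within groups may have narrowed the spread between replicates.

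Values below 0 were set to 0 (24 of the genes tested had one, none of the 10 described), and log2(value + 1) was modelled for the 8495 genes whose mean reached 1. The fit used limma (version 3.58.1, R 4.3.3), whose prior variance followed an intensity trend. Fold changes on this scale understate those of low genes. Adjusted p-values are Benjamini-Hochberg values over all 8495 genes, two-sided. Single values were also compared by the exact permutation test in SciPy 1.17.1, whose smallest p is 0.1. In simulated data, 191 of 200 genes shifted by a log2 value of 1.5 were recovered, and 94 of 200 shifted by 0.5. With no shift, 419 of 8495 had an unadjusted p under 0.05 in limma, against 736 in the 6 libraries. The simulated noise was drawn independently for each gene, unlike these libraries, so these counts cannot show an excess of changed genes. The shifted genes were drawn from those above a set level, which left out the levels of TFEB, TSC2, MTOR, TSC1 and RPTOR. Recovery was not split by level, and recovery with a library that stood apart as siR-GAL3 replicate 2 did was not tested. Promoter windows came from RefSeq (GRCr8) by symbol.

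The members, gene lists and tests were chosen with earlier results of these data known. Named genes were the 10 members, LGALS3, the 2 genes of each list with the smallest unadjusted p and the 3 genes most like MTOR and TFEB. One gene that this rule names is not reported here. Alternatives were the pseudocount, the filters, quantile and median-ratio scaling, no trend, the linear scale, blocks for replicate number and library set, an adjusted p under 0.1, and leaving out each library.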

Additional observations from a re-analysis of the deposited data

How the results depend on the processing

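In all 16 settings no member had an unadjusted p under 0.05, the smallest being 0.0562. Of 151 values of the members over these settings, 11 had the opposite sign. A block for library set gave log2 fold changes of 0.0017 for MTOR, 0.0069 for TSC2, -0.037 for RHEB, -0.063 for LAMTOR1 and -0.082 for RRAGA. Leaving out 1 library at a time gave -0.19 to 0.0027 for MTOR, -0.12 to 0.0049 for TSC2, -0.026 to 0.071 for RHEB, -0.069 to 0.13 for LAMTOR1 and -0.075 to 0.11 for RRAGA. The signs turned without siR-GAL3 replicate 2 and, for RHEB, also without siR-Con replicate 2. The median over the members was 0.043 with a mean of at least 10, where LAMTOR1 alone was left, and -0.19 in linear units on values not log-transformed. The number of all genes with an adjusted p under 0.05 was 0 in the main analysis, 106 with the library set as a block, 7 at an adjusted p under 0.1, and 0 to 167 when 1 library was left out, with 17 without siR-Con replicate 1, 4 without siR-Con replicate 3, 1 without siR-GAL3 replicate 1 and 167 without siR-GAL3 replicate 2. The cause was not tested. Libraries with the same replicate number did not deviate together from their group means (correlations of -0.17, -0.070 and 0.044). Yet replicate 1 of both groups shared 1364 exactly equal values and replicate 3 of both groups shared 1321, so a link between them is not excluded. The replicate block gave 6 genes with an adjusted p under 0.05, and it changed no call of a member. The unknown depth and 3 libraries a group limit the precision.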
